A study of Mus musculus with 16 samples.

Results

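Elastic fibres are the stretchable part of the lung's extracellular matrix. Cells secrete tropoelastin, the soluble precursor of elastin, which is laid onto a scaffold of fibrillin microfibrils with the help of linker proteins and is then cross-linked by enzymes of the lysyl oxidase family. In mice much of this takes place after birth, when alveolar myofibroblasts deposit elastin at the tips of the septa that divide the air spaces. The genes described here are the precursor Eln, the microfibril genes Fbn1, Fbn2, Mfap5 and Mfap4, the linkers Fbln5 and Emilin1, and the cross-linking enzymes Lox, Loxl1 and Loxl2. They were chosen by name, as all probes that are not controls and whose gene name or older synonym is one of these. The set was chosen with earlier results of these data known. Counts of its members beside shares of all genes are therefore a description and not a test. This gave 14 probes for 10 genes, of 32357 probes and 21640 genes tested. All 10 genes passed the filter on dim probes, and the probe used for each was well above background on all 16 arrays.

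The samples were whole lungs of BALB/c pups, a standard inbred mouse strain, with 1 array per mouse and 4 mice in each of 4 groups. At 3 days of age the pups spent 3 h in filtered air or in air with 1000 ppb of ozone, an oxidizing pollutant. Their lungs were removed 6 h or 24 h later. All pups were cross-fostered so that a dam was present during exposure, and each time had its own air-breathing littermates as controls. The 4 lungs of a group had been drawn at random from a larger group of exposed pups. The arrays measure bulk RNA, so fewer cells of a type and less RNA per cell cannot be told apart. Each slide held 4 arrays, ozone and air of 1 time together, and the 2 times were on different slides and scans. Age, run and slide cannot be told apart when 24 h is set against 6 h.

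Levels are given as log2 of the processed signal over each array's 75th percentile, so that 1 unit is a doubling. They are compared between groups for the same probe. Signals of different genes are not compared as amounts of RNA, because probes have unequal affinity. Sums over a list of genes add measured signals only. The 75th percentile lay between 605 and 999, and the share of spots well above background ran from 65.0% to 83.9%. Ozone replicate 3 of 6 h had the highest share, and no other array of 6 h exceeded 72.5%. All 8 lung epithelium markers were well above background on every array of all 4 groups. So were all 8 heart and skeletal muscle markers, whose summed signal, in multiples of the 75th percentile, was 69.5 to 125 in air and 65.8 to 86.4 in ozone lungs of 6 h.

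The array measures each transcript with a designed oligo of 60 bases, and its identity matters here because several genes have more than 1. The Eln probe, the only one behind the change in Eln, and the probes of Fbln5, which lie apart in the gene and gave unlike signals, are shown by their first 30 bases. The Emilin1 probe and the dimmer Loxl2 probe are shown whole. All are written 5′ to 3′ as in the array design.

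Eln: ataccggaagccttgacgatggatttggtg
Fbln5, bright probe: gcccagtttttacgaagaccccttaatcat
Fbln5, dimmer probe: agacaaaactagaacatgacctcttttagt
Fbln5, dimmest probe: ctcccagaaagttaaattcctagatagtca
Emilin1: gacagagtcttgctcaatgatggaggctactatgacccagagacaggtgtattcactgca
Loxl2, dimmer probe: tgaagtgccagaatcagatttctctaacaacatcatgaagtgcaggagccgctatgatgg

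On mouse build mm9 the Eln probe lies at chr5:135179129-135179188 on the minus strand. The Fbln5 probes lie on the minus strand at chr12:102988189-102988248, chr12:102984878-102984937 and chr12:103002702-103002761, in the order printed. The Emilin1 probe runs from chr5:31222545-31223001 on the plus strand, a span of 457 bases for an oligo of 60, so its target is split on the genome. The dimmer Loxl2 probe lies at chr14:70092141-70092200 and the brighter at chr14:70095254-70095313, both on the plus strand. Of the other members, probes of 4 lie at chr2:125126727-125126786 and chr2:125127254-125127313 (Fbn1, minus strand), chr11:61302096-61302155 (Mfap4, plus), chr6:122478938-122478997 (Mfap5, plus) and chr9:58138570-58138629 (Loxl1, minus). The Fbn2 probe (chr18:58171972-58172031) and the Lox probe (chr18:52676167-52676226) are on the minus strand. Whether a probe falls in an exon or an untranslated region was not determined here, since no mm9 annotation was used.

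At 6 h after exposure, Eln was the 1 member of 10 called changed by ozone (adjusted p under 0.05 by limma), and it was higher. No member was called lower. Of all genes, 1.36% were called higher at 6 h and 3.11% lower. The median change of the members was 0.06 on the log2 scale, beside 0.07 over all genes. That median over all genes depended on 1 array, and without ozone replicate 3 of 6 h it was -0.0042. With quantile normalization it was -0.0078, and with array weights -0.0012. At 24 h no member was called in either direction, beside 0.689% of all genes called higher and 1.32% called lower. The median change of the members was then -0.15, beside 0.02 over all genes.

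Eln encodes tropoelastin. Its level was 2.33, 2.28, 1.61 and 2.12 in the 4 air lungs of 6 h and 2.57, 2.71, 2.56 and 3.03 in the 4 ozone lungs. All ozone values lay above all air values, with air replicate 3 the lowest of the 8 and ozone replicate 4 the highest. The difference was 0.63 ± 0.15 (log2, SE, n = 4 per group; limma adjusted p = 0.0235), which is 1.55-fold. By size of change Eln ranked 67 among the 295 genes called higher at 6 h, and 4.61% of all genes had every ozone value above every air value. No member had every ozone value below every air value at 6 h, beside 4.87% of all genes. At 24 h its level was 3.52, 3.41, 3.88 and 3.63 in air and 3.57, 3.42, 3.55 and 3.75 in ozone. These groups overlapped, and the difference was -0.04 ± 0.15 (limma adjusted p = 0.971), with a 95% interval from -0.35 to 0.27.

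**Figure D1:**
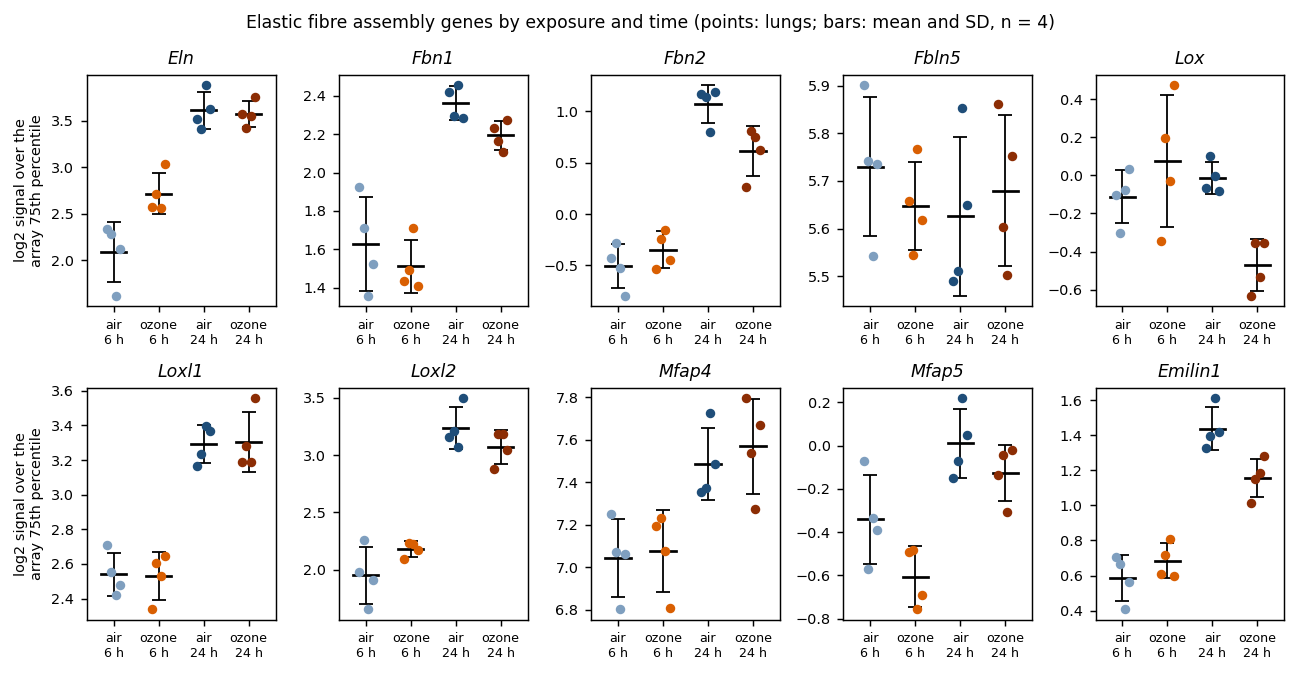
Level of each elastic fibre gene in the 16 lungs, as log2 signal over the array's 75th percentile (each panel has its own scale), by exposure and time. Points are lungs, and bars are the group mean and SD (n = 4). Eln in ozone lungs of 6 h lay at 2.56 to 3.03, above the air lungs at 1.61 to 2.33, while Lox in ozone lungs of 24 h lay at -0.63 to -0.36, below the air lungs at -0.08 to 0.10.

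The Eln call at 6 h depended on which arrays were used. Within the slide of replicates 1 and 2 the difference was 0.33 (limma adjusted p = 0.468), and within the slide of replicates 3 and 4 it was 0.93 (limma adjusted p = 0.0218). With slide as a block the limma adjusted p was 0.0237. Leaving out 1 array at a time kept the difference between 0.47 and 0.71. Among the arrays of 6 h, the call was lost without the second ozone lung (0.63), the fourth ozone lung (0.52) or the fourth air lung (0.64), with limma adjusted p of 0.0513, 0.0529 and 0.0769. Without ozone replicate 3, the array with the most spots above background, the difference was 0.68 (limma adjusted p = 0.0400).

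**Figure D2:**
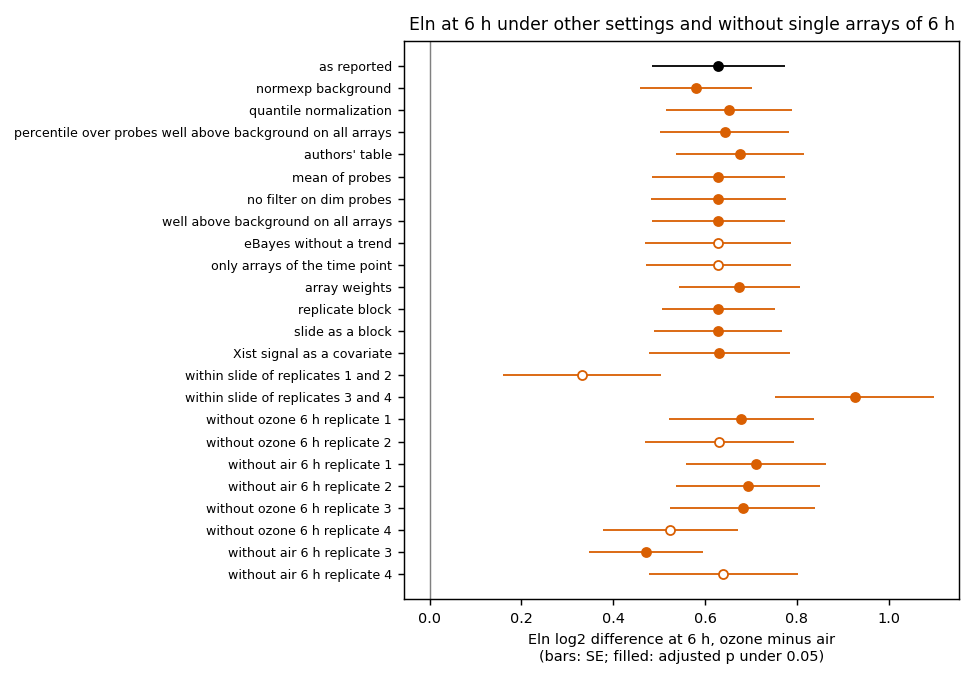
Eln difference between ozone and air lungs at 6 h, as log2 with its SE, under each alternative and without each array of 6 h in turn. Filled points have an adjusted p under 0.05. Every value lies above 0, between 0.33 and 0.93, and the open points are the settings in which the call was lost.

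Among the microfibril genes, Fbn1 encodes fibrillin-1, the main microfibril protein, and Fbn2 encodes fibrillin-2, which is best known from development. Fbn2 was at -0.43, -0.28, -0.52 and -0.79 in air and -0.53, -0.24, -0.16 and -0.45 in ozone lungs of 6 h. In lungs of 24 h it was at 1.16, 1.13, 0.80 and 1.19 in air and 0.27, 0.81, 0.75 and 0.62 in ozone. At 24 h 3 ozone lungs lay below every air lung, and ozone replicate 2 lay just above the lowest air lung, replicate 3. The difference at 24 h was -0.46 ± 0.13 (unadjusted p = 0.00305 and adjusted p = 0.0956, both by limma), so it was not called. Within the slides of 24 h it was -0.61 for replicates 1 and 2 and -0.30 for replicates 3 and 4. At 6 h it was 0.16 ± 0.13.

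Fbn1 was at 1.93, 1.71, 1.36 and 1.52 in air and 1.43, 1.49, 1.71 and 1.41 in ozone lungs of 6 h. The values of 24 h were 2.42, 2.30, 2.46 and 2.28 in air and 2.23, 2.16, 2.11 and 2.27 in ozone. The groups overlapped at 6 h, and at 24 h every ozone value lay below every air value, though the closest pair nearly met. The differences were -0.12 ± 0.10 at 6 h and -0.17 ± 0.10 at 24 h (limma adjusted p = 0.523 and 0.534). A second Fbn1 probe had differences of -0.13 at 6 h and -0.31 at 24 h, of the same sign.

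Mfap5 and Mfap4 encode small proteins that associate with microfibrils. Mfap5 was at -0.07, -0.57, -0.34 and -0.39 in air and -0.49, -0.48, -0.76 and -0.69 in ozone lungs of 6 h, and the groups overlapped. Its difference at 6 h was -0.26 ± 0.11 (unadjusted p = 0.0293 and adjusted p = 0.183, both by limma), the lowest of the members at that time. At 24 h it was at -0.15 to 0.22 in air and -0.31 to -0.02 in ozone, a difference of -0.14 ± 0.11. Mfap4 was at 6.80 to 7.25 in air and 6.81 to 7.23 in ozone lungs of 6 h, and at 7.36 to 7.72 and 7.27 to 7.79 at 24 h. Its differences were 0.03 ± 0.13 and 0.08 ± 0.13, and the groups overlapped at both times.

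Of the linkers, Fbln5 encodes fibulin-5, which binds tropoelastin and guides it onto microfibrils. Its brightest probe was at 5.54 to 5.90 in air and 5.55 to 5.77 in ozone lungs of 6 h, and at 5.49 to 5.85 and 5.50 to 5.86 at 24 h. All 4 groups overlapped, and the differences were -0.08 ± 0.10 at 6 h and 0.05 ± 0.10 at 24 h (limma adjusted p = 0.659 and 0.923). The dimmer probe gave 0.12 and 0.05. The dimmest probe was well above background on none of the 4 air and 1 of the 4 ozone lungs of 6 h, and on 4 air and 3 ozone lungs of 24 h. At 6 h its measured values were -6.62, -5.74, -5.83 and -5.90 in air and -5.01, -6.14, -3.80 and -5.88 in ozone, and this difference was not called (limma adjusted p = 0.277 over all probes). The highest value was that of ozone replicate 3, the array with the most spots above background, and no fold is given because most of these arrays did not measure the probe.

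Emilin1 encodes a glycoprotein found between elastin and microfibrils. It was at 0.70, 0.66, 0.41 and 0.56 in air and 0.61, 0.72, 0.81 and 0.60 in ozone lungs of 6 h, and the groups overlapped. Its values of 24 h were 1.33, 1.39, 1.61 and 1.42 in air and 1.02, 1.15, 1.19 and 1.28 in ozone. Every ozone lung of 24 h lay below every air lung. The difference was -0.28 ± 0.08 (unadjusted p = 0.00421 and adjusted p = 0.113, both by limma), and it was -0.28 within each slide. At 6 h it was 0.10 ± 0.08.

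The cross-linking enzyme Lox oxidizes lysines of elastin and collagen. It was at -0.10, -0.30, -0.08 and 0.03 in air and -0.35, 0.20, -0.03 and 0.47 in ozone lungs of 6 h. At 24 h it was at -0.07, 0.10, 0.00 and -0.08 in air and -0.63, -0.36, -0.54 and -0.36 in ozone. The ozone lungs of 6 h were spread on both sides of the air lungs, and those of 24 h were all below the air lungs. The difference at 24 h was -0.46 ± 0.13 (unadjusted p = 0.00308 and adjusted p = 0.0964, both by limma). Within the slides of 24 h it was -0.51 and -0.40. The difference at 6 h was 0.19 ± 0.13.

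Loxl1, a relative of Lox tied to elastic fibre upkeep, was at 2.42 to 2.71 in air and 2.34 to 2.64 in ozone lungs of 6 h, and at 3.16 to 3.40 and 3.19 to 3.56 at 24 h. Its differences were -0.01 ± 0.09 and 0.01 ± 0.09, and the groups overlapped at both times. Loxl2, another relative, best known for collagen IV, was at 1.98, 2.26, 1.65 and 1.91 in air and 2.09, 2.23, 2.22 and 2.18 in ozone lungs of 6 h. The ozone lungs lay inside the range of the air lungs, and the difference was 0.23 ± 0.11 (unadjusted p = 0.0575 and adjusted p = 0.254, both by limma). The difference at 24 h was -0.16 ± 0.11. The dimmer Loxl2 probe had differences of 0.13 at 6 h and -0.45 at 24 h, the same signs.

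Counted over the members at 24 h, 3 had every ozone value below every air value (Fbn1, Lox and Emilin1), beside 4.96% of all genes, and none had every ozone value above, beside 6.8%. At an unadjusted p under 0.05, 3 were lower (Fbn2, Lox and Emilin1) and none was higher, beside 5.06% and 8.25% of all genes. At 6 h the same count was 1 higher (Eln) and 1 lower (Mfap5), beside 10.2% and 10.8%. These counts use the brightest probe of each gene and describe a set chosen with earlier results of these data known. At 24 h the second Fbn1 probe (-0.31) and the dimmer Loxl2 probe (-0.45) had limma unadjusted p of 0.0113 and 0.0356. Their limma adjusted p over all probes were 0.218 and 0.366. The dimmer and dimmest Fbln5 probes gave 0.05 and -0.23, with limma unadjusted p of 0.706 and 0.576. In all, 7 members lay below 0 at 24 h and 4 at 6 h, beside 45.1% and 38.6% of all genes. The share at 6 h is from the fit with ozone replicate 3, without which the median over all genes moved from 0.07 to -0.0042.

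**Figure D3:**
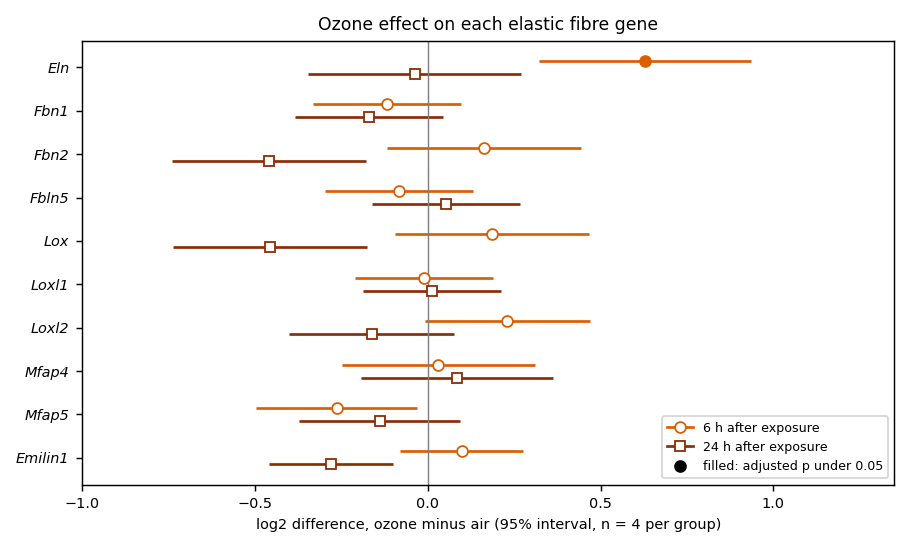
Difference between ozone and air lungs for each elastic fibre gene, as log2 with its 95% interval (n = 4 per group), at 6 h (circles) and 24 h (squares). The filled circle is Eln at 6 h (0.63), the only value with an adjusted p under 0.05. At 24 h the intervals of Fbn2, Lox and Emilin1 lie below 0.

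Whether the ozone effect differed between the times was tested as the effect at 24 h minus that at 6 h. No member was called, beside 0.0462% of all genes called higher and 0.0185% called lower. At an unadjusted p under 0.05, 5 members had a lower effect at 24 h and none a higher one, beside 4.51% and 7.99% of all genes. Since the set was chosen with earlier results of these data known, this count is a description and not a test. They were Eln (-0.67 ± 0.21), Lox (-0.64 ± 0.19), Fbn2 (-0.62 ± 0.19), Loxl2 (-0.39 ± 0.16) and Emilin1 (-0.38 ± 0.12), with limma adjusted p between 0.167 and 0.313. The Eln effect at 6 h is therefore not shown to differ from that at 24 h after adjustment.

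In the air lungs, 8 of the 10 members were higher at 24 h than at 6 h and none was lower, beside 21.4% and 28.5% of all genes, and their median difference was 0.74, beside 0.01 over all genes. Fbn2 (1.58 ± 0.13), Eln (1.52 ± 0.15) and Loxl2 (1.28 ± 0.11) had the largest differences (limma adjusted p = 7.71e-08, 2.35e-07 and 1.11e-07). Emilin1 differed by 0.85 ± 0.08, Loxl1 by 0.75 ± 0.09 and Fbn1 by 0.73 ± 0.10. These are values of the brightest probe of each gene, and the sizes depended on the probe. The second Fbn1 probe differed by 1.21 ± 0.11 and the dimmer Loxl2 probe by 1.47 ± 0.20. The dimmer and dimmest Fbln5 probes gave -0.25 and 0.38 (limma adjusted p over all probes 0.151 and 0.461). Mfap4 and Mfap5 differed least of the called members, by 0.44 ± 0.13 and 0.35 ± 0.11 (limma adjusted p = 0.0101 and 0.0132). Fbln5 (-0.10 ± 0.10) and Lox (0.10 ± 0.13) were not called. The groups did not overlap for 7 members, beside 22.5% of all genes with every value of 24 h above every value of 6 h and 26.4% with every value below. Mfap5 was the called gene whose groups overlapped. The sign of Fbln5 depended on the scaling: with quantile normalization it was 0.36 and called. As stated above, slide and run cannot be told apart from time in this comparison.

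Ordering the 4 group means of each gene shows where its neighbours separate. Eln, Fbn2, Loxl2 and Emilin1 had the same order, from air 6 h over ozone 6 h and ozone 24 h to air 24 h. For Eln the first step and the second separated without overlap and the last did not. For Fbn2 and Loxl2 only the step from 6 h to 24 h separated, and for Emilin1 that step and the last. Fbn1 ran from ozone 6 h over air 6 h and ozone 24 h to air 24 h, and its last and middle steps separated. For Loxl1, lowest in ozone 6 h and highest in ozone 24 h, and for Mfap4, lowest in air 6 h and highest in ozone 24 h, only the step from 6 h to 24 h separated. Lox alone had its lowest mean in the ozone lungs of 24 h, apart from all other groups, which overlapped. For Fbln5 and Mfap5 no neighbours separated.

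After subtracting group means, 34 of the 45 pairs of members correlated above 0 over the 16 arrays, with a median r of 0.28. The arrays lie on 4 slides of 4, all genes of an array share its scaling, and the values are given as a description. The same share over pairs of other genes was not computed. The highest pair was Fbln5 and Mfap4 (r = 0.78), and the lowest was Fbn2 and Fbln5 (r = -0.42). Eln correlated best with Loxl1 (r = 0.70). For likeness to Eln, genes with RIKEN, predicted, clone or accession-like names were passed over. Among the 13828 other genes well above background on all arrays, those most like Eln were Dpp3, Vwf, Tsc22d4, Akt1 and Zfp423. Over the 16 arrays their r with Eln ran from 0.969 to 0.972. Their r with group means removed lay between 0.63 and 0.80. They were picked on these same 16 arrays, in which Eln differed most between the times. The r with group means removed is therefore not a separate measure of likeness. Their own differences between times are not given as a result.

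Of 28 other genes of microfibrils and elastic fibres, 27 were measured, and 1 rose at 6 h while none fell, beside 1.36% and 3.11% of all genes. At an unadjusted p under 0.05, 7 were higher and 1 lower, beside 10.2% and 10.8% of all genes, and the median was 0.12, beside 0.07. The gene that rose was Adamtsl2, which encodes a secreted protein that binds fibrillin-1. It was at -2.02 to -1.73 in air and -1.66 to -0.96 in ozone lungs, a difference of 0.64 ± 0.15 (limma adjusted p = 0.0247), and the groups did not overlap. At 24 h it was -0.32 ± 0.15, and the difference between times was -0.96 ± 0.21 (limma adjusted p = 0.0901). The call at 6 h held in 12 of 15 alternatives and in 11 of 16 fits that left out 1 array. It was lost without ozone replicate 2, 3 or 4 or without air replicate 1 or 4 of 6 h, where the difference stayed between 0.57 and 0.67. At 24 h no partner was called, beside 0.689% of all genes called higher and 1.32% lower. At an unadjusted p under 0.05, 2 were higher and 3 lower, beside 8.25% and 5.06%, and the median was 0.03, beside 0.02. Ltbp4 and Efemp2, named here after their values were seen, act with Fbln5 and with Lox respectively, and neither was called. Ltbp4 was 0.27 ± 0.09 at 6 h and -0.09 ± 0.09 at 24 h, and Efemp2 was -0.28 ± 0.11 and -0.04 ± 0.11.

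**Figure D4:**
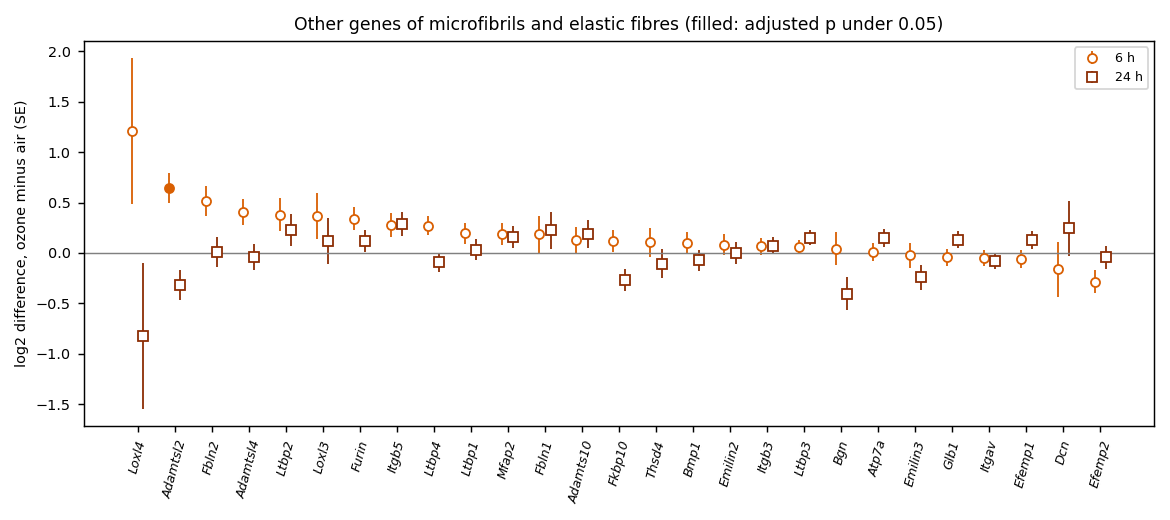
Difference between ozone and air lungs for the 27 measured other genes of microfibrils and elastic fibres, as log2 with its SE, at 6 h (circles) and 24 h (squares), ordered by the value at 6 h. The filled circle is Adamtsl2 (0.64). Loxl4, at the far left, was not well above background in any air lung of 6 h.

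The counts of called genes in the lists that follow stand beside 1.36% of all genes called higher and 3.11% called lower at 6 h, and 0.689% and 1.32% at 24 h. In lists of this size 1 or 2 calls say nothing about the list as a whole. Of 18 elastin-degrading enzymes and their inhibitors, 17 were measured. At 6 h 1 rose, Timp4, an inhibitor of metalloproteinases, by 0.58 ± 0.13 (limma adjusted p = 0.0205), and none was called at 24 h. Of 31 growth factor and TGF-beta genes that signal to elastin-producing cells, 2 fell at 6 h. These were Igf1, a growth factor, at -0.48 ± 0.11 (limma adjusted p = 0.0196), and Hhip, an inhibitor of hedgehog signalling, at -0.50 ± 0.11 (limma adjusted p = 0.0164). At 24 h 1 fell, Smad6, an inhibitor of BMP signalling, by 0.44 ± 0.09 (limma adjusted p = 0.0179).

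Of 9 alveolar myofibroblast markers, 1 was lower at 6 h (Hhip, which is also in the growth factor list) and 1 was higher at 24 h (Enpp2, by 0.71 ± 0.09, limma adjusted p = 0.000401). Their summed signal was 130 to 197 in air and 127 to 169 in ozone lungs of 6 h, and 219 to 225 and 214 to 229 at 24 h, with all 9 well above background throughout. Summed signals here follow the brightest probes and say little about the dim ones. In air lungs of 6 h the mean signals of Tagln and Acta2 were 6.29 and 5.43, beside 0.78 for Pdgfra and 0.51 for Hhip. These signals show what weighs in the sum and do not rank the genes by amount of RNA. Of 9 smooth muscle markers none was called at either time, and their sum was 20.4 to 36.0 in air and 24.3 to 29.1 in ozone lungs of 6 h. Of 7 pericyte markers 1 rose at 6 h, Notch3, by 0.47 ± 0.11 (limma adjusted p = 0.0266), and none was called at 24 h. Their sum was 86.9 to 89.3 in air and 84.3 to 92.0 in ozone lungs of 6 h. Of 8 macrophage markers 1 was lower at 6 h (Mrc1, -0.39 ± 0.11) and 2 were higher at 24 h (Mpeg1, 0.52 ± 0.12, and Csf1r, 0.31 ± 0.07), with sums at 24 h of 11.4 to 12.5 in air and 14.1 to 18.5 in ozone. For the lists of lipofibroblasts, adventitial fibroblasts, mesothelium, endothelium, lung epithelium, cartilage, heart and skeletal muscle, and neutrophils, no marker was called in either ozone comparison. When 1 array at a time was left out, the calls of the genes outside the 10 members held in all 16 fits for Enpp2, 15 for Timp4, 14 for Hhip, 13 for Igf1, 12 for Notch3 and Smad6, 9 for Csf1r and Mpeg1, and 4 for Mrc1. Every call lost at 6 h other than that of Mrc1 was lost without an array of 6 h, and air replicate 4 was such an array for Timp4, Hhip, Igf1 and Notch3. Under the 15 alternatives the calls held in 14 for Enpp2, 13 for Igf1, 12 for Hhip and Smad6, and 11 for Timp4 and Notch3. They held in 10 for Csf1r, 8 for Mpeg1 and 7 for Mrc1. The part of these cell types in the Eln result was not tested.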

How the data were processed

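RNA of 16 whole lungs was hybridised to 1-colour arrays. Per the file headers, the authors' deposited scanner files hold spot intensity values written by Agilent Feature Extraction 10.7.1.1, with the background subtracted. A log2 table that the authors deposited, whose background treatment no source used here states, served only as an alternative. Probes carry mm9 positions from the array design.

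Spots of 1 probe were averaged, and log2 of the processed signal minus each array's 75th percentile was taken. A probe was kept if 4 or more of the 16 arrays had it well above background, 117 were left out for an uneven spot, and the probe with the highest mean stood for a gene. The model was fitted in R 4.3.3 with lmFit and trended eBayes of limma 3.58.1 (1 mean per group, two-sided) with Benjamini-Hochberg adjustment over all 21640 genes, and genes under an adjusted p of 0.05 were called. The number of arrays limits the precision, with a median SE of 0.13 (log2) at 6 h. The labels give separate mice. The fit was tested on simulated data. Those values were drawn independently, with no effect of slide or array quality, so the test says nothing about such effects in the calls. Alternatives covered background, scaling, probe choice, filters, prior, arrays, slide, replicate number and Xist signal. Named genes were all members, called members of each list (at most 4 per list and comparison) and the 5 genes most correlated with Eln. Those 5 were sought among 13828 genes, with RIKEN, predicted, clone and accession-like names passed over. The members and lists were chosen with earlier results of these data known. Promoters were not used here.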

Additional observations from a re-analysis of the deposited data

Results flagged for a closer look

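Of the 56 sets of 4 arrays tested (14 probes in 4 groups), 1 had a value far from the others. Fbn2 in air replicate 3 of 24 h was at 0.798, and its gap to the nearest array was 0.860 of the group's range, above Dixon's critical value of 0.829. Chance flags about 1 in 20 such sets.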

How the results depend on the processing

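The count of members called at 6 h was 0 with eBayes without a trend, with only the arrays of the time point, and within the slide of replicates 1 and 2, and 0 to 1 when 1 array was left out. At 24 h it was 1 (Lox) with normexp background and with only the arrays of the time point, 3 (Fbn2, Lox and Emilin1) with array weights, and 0 to 1 when 1 array was left out, where Lox was called without ozone replicate 1 or 4 of 6 h. For the difference between times it was 2 (Fbn2 and Lox) with array weights and 0 to 0 when 1 array was left out. The cause was not tested. Between times of the air lungs it was 7 to 10 under the alternatives and 7 to 8 without 1 array. Eln at 6 h was called in 12 of 15 alternatives, with limma adjusted p between 0.00615 and 0.468, and in 13 of 16 fits without 1 array. With Xist signal as a covariate, Lox at 24 h was -0.36, Fbn2 -0.44 and Emilin1 -0.31 (limma adjusted p = 0.350, 0.249 and 0.174). Over all genes, 969 were called at 6 h (53 to 1815 under the alternatives), 435 at 24 h (47 to 1739) and 14 for the difference between times (1 to 536). Correlations of deviations between arrays with the same replicate number were 0.0505, 0.139, 0.113 and 0.136 at 6 h and 0.195, 0.146, 0.108 and -0.0074 at 24 h. For the same ozone arrays, the highest with an air array of another number was 0.0513, 0.147, 0.116 and 0.0193 at 6 h. At 24 h it was 0.138, 0.306, 0.0796 and 0.429. The numbers were not taken to pair the mice, though these values do not settle it. With the replicate block Eln at 6 h had a limma adjusted p of 0.0378, and no member's call changed. Normexp background moved the median of all genes to 0.14 at 6 h, -0.13 at 24 h, -0.21 between times and 0.20 in air, the authors' table moved that in air to 0.26 (levels set across its 2 times, which may have been normalized apart), and no filter gave 0.14 at 6 h and -0.11 in air. Signs reversed as follows, for members not called in the main comparison. The slide of replicates 3 and 4 alone reversed at 6 h Fbn1 (0.12), Fbln5 (0.053), Loxl1 (0.14) and at 24 h Fbln5 (-0.12), Loxl1 (-0.010), Mfap4 (-0.13). The slide of replicates 1 and 2 alone reversed at 6 h Fbn2 (-0.031), Emilin1 (-0.023) and at 24 h Eln (0.030), Mfap5 (0.019). Quantile normalization reversed at 6 h Fbln5 (0.015), Loxl1 (0.035), at 24 h Fbln5 (-0.032), Loxl1 (-0.0045), Mfap4 (-0.11), between times Fbln5 (-0.047), Loxl1 (-0.039), Mfap4 (-0.24) and in air Fbln5 (0.36). The authors' table reversed at 6 h Fbln5 (0.013), Loxl1 (0.034), at 24 h Fbln5 (-0.023), Loxl1 (-0.0011), Mfap4 (-0.11), between times Fbln5 (-0.036), Loxl1 (-0.035), Mfap4 (-0.24) and in air Fbln5 (0.27). The mean of probes reversed at 6 h Fbln5 (0.28), at 24 h Fbln5 (-0.041), between times Fbln5 (-0.33) and in air Fbln5 (0.0085). That mean takes in the dimmest Fbln5 probe, which only 1 of the 8 arrays of 6 h had well above background. The percentile over probes well above background on all arrays reversed at 6 h Loxl1 (0.0043) and between times Loxl1 (-0.0043). Array weights reversed at 6 h Loxl1 (0.057), Mfap4 (-0.0064) and at 24 h Eln (0.032). Normexp background reversed at 6 h Mfap4 (-0.027), at 24 h Eln (0.12) and between times Fbn1 (0.046). Xist signal as a covariate reversed at 24 h Fbln5 (-0.0032). Leaving out 1 array reversed Loxl1 at 6 h (-0.050 to 0.054), Mfap4 at 6 h (-0.050 to 0.12), Eln at 24 h (-0.10 to 0.053), Fbln5 at 24 h (-0.0063 to 0.13), Loxl1 at 24 h (-0.071 to 0.052), Fbn1 between times (-0.15 to 0.038), Loxl1 between times (-0.061 to 0.063) and Mfap4 between times (-0.037 to 0.15).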
